A study of Mus musculus with 6 samples.

Results

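The ephrins and their Eph receptors, the Slits and their Robo receptors, and the netrins with the receptors Dcc, Neo1 and Unc5 were read out in 3 mouse cell populations. The genes were taken by symbol: every probe set, the group of probes that measures a transcript, whose only platform symbol was an ephrin, Eph, Slit, Robo, netrin, netrin-G, Unc5, Dcc or Neo1. This gave 84 of 45137 probe sets, which named 40 of 18193 genes, 17 of them ligands and 23 receptors. Chip A held 52 of the probe sets and chip B held 32.

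Mature olfactory sensory neurons (OSNs) had been sorted for their green fluorescence. They were set against the residual olfactory epithelium, which is what remained once those neurons had been taken out, and against brain from which the olfactory bulbs had been removed. All 3 came from OMP-GFP mice, in which GFP stands in place of the coding region of Omp, so no array holds an animal without that allele. The RNA came from some 500000 OSNs and some 2500000 cells of the residual epithelium. The labels and files used here state neither the age nor the sex nor the number of animals. The residual epithelium is a mixture and not a purified cell type, and brain is a whole tissue. Each population had 1 array per chip, so nothing below has a replicate check and no p-value is given.

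Ephrins are membrane-bound ligands that signal on contact. Ephrin-As are held by a lipid anchor and bind mainly EphA receptors, ephrin-Bs cross the membrane and bind mainly EphB receptors, and both the ligand-bearing and the receptor-bearing cell can respond. Slits are secreted proteins that repel axons through Robo receptors, while netrins attract axons through Dcc and repel them through Unc5 receptors. In the mouse nose these systems are known for steering OSN axons to their glomeruli in the olfactory bulb, with ephrin-A levels differing between axons that carry different odorant receptors and with Robo2 and Slit1 acting in the sorting of axons along the bulb.

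Values are deposited probe set signals, an intensity in arbitrary units that was scaled to a common level on each array (trimmed means between 499.6 and 499.87). Signals under the lower quartile of a chip (70.3 on chip A, 79.7 on chip B), here the floor, were raised to it before ratios were taken within a chip, and a ratio that used the floor is given as "at least". A gene or probe set was counted in a comparison if at least 1 of its 2 signals was at or above the median of its chip (222.0 for A, 243.7 for B), and was called higher or lower from 2-fold, which is 1 log2 unit. Each gene was represented by 1 probe set, the one whose mean log2 signal over the 3 arrays ranked highest on its chip. As a yardstick, log2 ratios of 2 probe sets of the same gene differed with an SD of 0.88 for OSNs over residual epithelium, 1.11 for OSNs over brain and 1.10 for residual epithelium over brain. Log2 ratios of 99 probe sets present on both chips differed with an SD of 0.25, 0.29 and 0.34 for these comparisons, and by a mean of 0.23, -0.19 and -0.42 (chip A minus chip B). Ratios on the 2 chips are thus offset, by more than that SD for residual epithelium over brain. A single call at 2-fold in either comparison with brain is therefore smaller than 1 SD between probe sets. Neither SD stands for the spread between animals.

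The mature OSN markers were highest in the sorted cells. Omp, the gene whose locus drives GFP, had 11057.4 in OSNs, 248.8 in the residual epithelium and 201.4 in brain. Signals summed over 7 genes of mature OSNs were 186400 in OSNs, 5700 in the residual epithelium and 5082 in brain, and all 7 were higher in OSNs than in either. Genes of immature OSNs summed to 12390 in OSNs, against 39090 in the residual epithelium and 11270 in brain, and 5 of 7 were lower in OSNs than in the residual epithelium. Blood genes summed to 575.4 in OSNs, 58320 in the residual epithelium and 549.3 in brain, with Ptprc, Camp, Ikzf1, Slc4a1 and Alas2 below the floor in OSNs. Sustentacular genes summed to 7450 in OSNs, 11020 in the residual epithelium and 657.9 in brain, and Bowman gland genes to 4436, 69480 and 905.6. Of these, Cyp2g1, an enzyme of sustentacular cells, had 3821.8 in OSNs and 2657.3 in the residual epithelium. Progenitor genes summed to 456.8, 13260 and 1950 and horizontal basal cell genes to 248.8, 1799 and 90.1, for OSNs, residual epithelium and brain. The 6 stromal genes summed to 1122, 3960 and 1737 and the 8 endothelial genes to 1055, 1117 and 2062, in the same order. Genes of brain neurons summed to 2019, 1630 and 36590 and genes of astrocytes to 5431, 2352 and 39230. Genes of oligodendrocytes summed to 841, 4238 and 27170 and genes of ensheathing glia to 553.3, 618.6 and 6242. Single genes made up most of some sums. Slc1a2 had 4519.1 of the astrocyte sum in OSNs, and Cnp had 3236.3 of the oligodendrocyte sum in the residual epithelium. Neurod1 had 1871.4 of the progenitor sum in brain, where Neurog1, Mki67 and Top2a were below the floor. The part of these other cells in any ratio below was not tested. In such mixed RNA, fewer cells of a type and less RNA per cell cannot be told apart.

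Of the guidance genes that reached the chip median, most had their highest signal in brain and fewer in OSNs. Of the 40 genes, 32 reached the chip median in at least 1 population. Among these the highest signal was in OSNs for 7, in the residual epithelium for 5 and in brain for 20. No fold threshold was applied to these ranks, and the share of all genes highest in each population was not computed. The ranks therefore do not show whether the set leans toward brain more than other genes do. Of the 32 genes, 29 were at or above the median in brain, 17 in OSNs and 17 in the residual epithelium. A gene that reached it in only 1 population is highest there by the filter. The 7 include Epha7, Neo1 and Dcc, whose OSN signals were within 2-fold of brain. Other Dcc probe sets, on chip B, had OSNs lowest. Receptors were highest in brain for 13 of 18, in OSNs for 4 and in the residual epithelium for 1. Ligands were more evenly spread, with 3 highest in OSNs, 4 in the residual epithelium and 7 in brain. The 8 genes under the chip median everywhere were Efna1, Epha1, Epha2, Ephb3, Ephb4, Slit3, Robo4 and Ntn3, whose highest signals lay between 34.2 and 189.4. Of these, Epha2, Ephb3 and Slit3 were below the floor on all arrays.

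**Figure D1:**
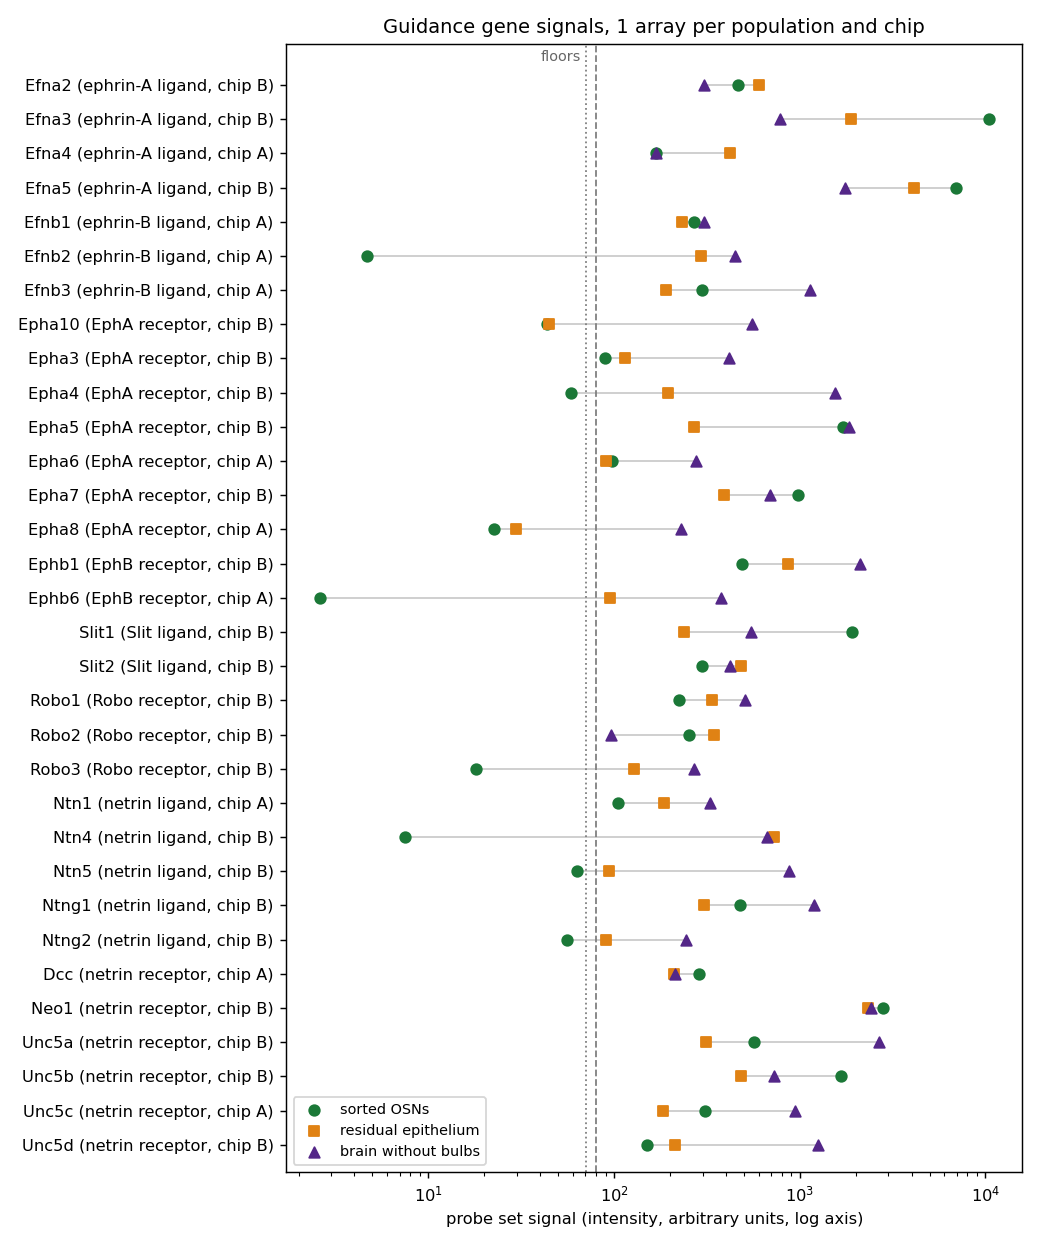
Signals of the representative probe set of the 32 guidance genes that reached the chip median, on a log axis in arbitrary units, with circles for OSNs, squares for residual epithelium and triangles for brain. The dotted and dashed lines mark the floors of chip A (70.3) and chip B (79.7). The triangle is the rightmost point for 20 genes and the circle for 7, among them Efna3, Efna5, Slit1 and Unc5b.

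Within the epithelium, the question is which guidance genes belong to the mature neurons. Efna3, Epha5, Epha7, Slit1 and Unc5b had at least 2-fold more signal in OSNs than in the residual epithelium, and Efna4, Efnb2 and Ntn4 were lower by as much or more. The remaining 13 of 21 counted members stayed within 2-fold. The 5 higher members make 23.8% of those counted, against 12.8% of all counted genes, and the 3 lower members make 14.3%, against 18.7% of all. All 3 lower members, and Slit1, reached the chip median in only 1 of the 2 populations, which fixes the sign of their ratios. Among the 13 members at or above the median in both, 4 were higher and 0 were lower, against 11.6% and 9.97% of such genes in all. The median log2 ratio of counted members was 0.45, beside -0.05 for all counted genes. No receptor was called lower by its representative probe set, though 2 probe sets of Dcc were.

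The 250 bases before the start of the 4 genes higher in OSNs that have an entry in RefSeq's promoter table (GRCm38.p6) are shown, so that the starts of genes with a shared pattern can be read side by side. Efna4 is added as the chromosomal neighbour of Efna3 that was lower, not higher, in OSNs than in the residual epithelium. Both genes were higher in the residual epithelium than in brain. Robo3 is added from among several genes whose representative probe set lay under the floor in OSNs. It is the only member with an EBF core in its window, so it does not stand for the others. For Efna3 and Epha7, which have 2 starts each, the more upstream one is given. Capitals mark letters of motifs that were searched for.
Efna3, chr3:89322940-89323189, minus strand: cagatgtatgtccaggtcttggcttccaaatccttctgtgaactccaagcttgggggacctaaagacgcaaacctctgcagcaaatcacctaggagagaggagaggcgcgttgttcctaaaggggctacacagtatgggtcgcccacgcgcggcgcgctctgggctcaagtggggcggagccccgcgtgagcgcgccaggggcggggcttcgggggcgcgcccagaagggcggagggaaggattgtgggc
Epha5, chr5:84417383-84417632, minus strand: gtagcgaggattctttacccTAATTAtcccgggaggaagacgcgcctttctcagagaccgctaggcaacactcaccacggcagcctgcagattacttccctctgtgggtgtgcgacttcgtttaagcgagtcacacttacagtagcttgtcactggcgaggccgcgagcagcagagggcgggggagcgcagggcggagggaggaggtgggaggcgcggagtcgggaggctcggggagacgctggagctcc
Epha7, chr4:28812881-28813130, plus strand: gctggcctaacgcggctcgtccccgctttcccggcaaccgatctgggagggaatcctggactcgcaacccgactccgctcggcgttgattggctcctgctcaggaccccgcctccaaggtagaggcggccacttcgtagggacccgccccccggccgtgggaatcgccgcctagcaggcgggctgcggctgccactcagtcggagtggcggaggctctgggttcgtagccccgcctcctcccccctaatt
Unc5b, chr10:60831582-60831831, minus strand: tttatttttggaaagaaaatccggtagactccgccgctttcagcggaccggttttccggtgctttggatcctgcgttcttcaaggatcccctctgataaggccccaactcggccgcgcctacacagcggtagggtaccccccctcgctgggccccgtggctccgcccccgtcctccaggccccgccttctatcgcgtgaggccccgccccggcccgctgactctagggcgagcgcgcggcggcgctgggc
Efna4, chr3:89338029-89338278, minus strand: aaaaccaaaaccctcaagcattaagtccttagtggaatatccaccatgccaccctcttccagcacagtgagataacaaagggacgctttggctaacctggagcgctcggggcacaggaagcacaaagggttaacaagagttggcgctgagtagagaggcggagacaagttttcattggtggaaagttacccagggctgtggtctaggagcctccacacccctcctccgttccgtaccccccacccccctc
Robo3, chr9:37433176-37433425, minus strand: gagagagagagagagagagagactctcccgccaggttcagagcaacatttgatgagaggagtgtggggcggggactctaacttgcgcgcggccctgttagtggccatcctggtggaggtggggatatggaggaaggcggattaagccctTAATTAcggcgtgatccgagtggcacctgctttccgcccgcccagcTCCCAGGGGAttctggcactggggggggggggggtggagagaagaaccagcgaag
Motifs were searched in windows of this length on both strands, and the matches in the printed windows do not overlap. They were TCCC, any 2 bases and GGGA, the core bound by EBF factors; TAATTA, bound by homeodomain factors; and TATAAA, the TATA box. In all, 35 of 40 members had an entry, with 40 windows. TAATTA was found in 3 of the 40 (7.5%), those of Epha5, Efna1 and Robo3, and in 4.85% of all 32817 windows. In the Epha5 window it begins at position -230, counted back from the start. The EBF core was found in 1 window (2.5%), that of Robo3 at position -55, and in 0.78% of all windows. TATAAA was found in 2 (5.0%), those of Slit2 and Efnb2, and in 12.4% of all. None of the 3 motifs was present in the printed windows of Efna3, Epha7, Unc5b or Efna4. A match describes letters in a window and not a bound site. The windows of Efna3, Epha5, Epha7 and Unc5b were 63.6%, 62.4%, 69.2% and 66.8% G and C, and that of Efna4 was 54.4%.

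Ephrin-A ligands differed from each other. On chip B the signal of Efna3 was 10455 in OSNs, 1877.5 in the residual epithelium and 784.5 in brain. A different probe set on chip A gave 4135.3, 986.4 and 412.5. Both chips therefore gave the same order, with OSNs 5.57-fold and 4.19-fold above the residual epithelium, and the log2 ratios of 2.48 and 2.07 differed by less than the SD between probe sets of a gene. Over brain the OSN signal was 13.3-fold and 10.02-fold higher. Residual epithelium exceeded brain too, with a log2 ratio of 1.26 on either chip.

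Efna5, whose product is known to act with Efna3 on OSN axons, had 6974.9 in OSNs, 4131.2 in the residual epithelium and 1745.7 in brain. Its OSN signal was 1.69-fold that of residual epithelium, within 2-fold, and it was 3.995-fold that of brain. Residual epithelium was 2.37-fold above brain. Markers of immature OSNs also summed to more in the residual epithelium than in OSNs or brain, and their part in the residual Efna5 signal was not tested. A second Efna5 probe set, on chip A, had 157.0, 29.7 and 113.6, all under the chip median, and was not counted.

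The other ephrin-A genes did not follow these 2. Efna4 had 168.9 in OSNs, 421.8 in the residual epithelium and 168.7 in brain, so that residual epithelium alone reached the chip median and OSNs were 2.50-fold lower than it. Efna2 had 467.5, 600.7 and 303.5, with no pair 2-fold apart, and its chip A probe set (198.3, 163.6 and 223.3) put the populations in another order. Efna1, an ephrin-A found on many vessels and epithelia, reached only 75.6 in OSNs and lay below the floor in the other populations.

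No ephrin-B ligand was called higher in OSNs. Efnb2, known from arteries as well as from axon targets, had 4.7 in OSNs, 292.5 in the residual epithelium and 445.8 in brain. OSNs were at least 4.16-fold lower than residual epithelium and at least 6.34-fold lower than brain, and the first call ended with the floor at percentile 40. A second probe set of Efnb2 (48.5, 235.5 and 178.5) also had OSNs lowest, while 2 more never reached the chip median. Efnb3, a neuronal ephrin, had 297.1, 190.6 and 1132.1, and was 3.81-fold lower in OSNs than in brain. Efnb1 stayed within 2-fold of both other populations (268.3, 232.2 and 304.4). Of the stromal genes 5 of 5 counted were lower in OSNs than in the residual epithelium as well (summed signals of 1122 and 3960), and of the endothelial genes 0 of 2 counted were called (1055 and 1117, with Tie1 below the floor in all 3 populations). Their part in the Efnb2 difference was not tested.

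Among EphA receptors, Epha5 and Epha7 were prominent in OSNs. Epha5 had 1717.6 in OSNs, 271.0 in the residual epithelium and 1832.3 in brain, which is 6.34-fold higher in OSNs than in the residual epithelium and close to the brain signal. A second chip B probe set had 2184.3, 43.0 and 1755.6, so that OSNs exceeded the residual epithelium at least 27.4-fold. On chip A, a probe set with 237.5, 9.4 and 304.7 gave at least 3.38-fold. The 3 counted Epha5 probe sets thus had OSNs and brain high and residual epithelium low, with log2 ratios of OSNs over residual epithelium from 1.76 to 4.78. A further chip A probe set (181.4, 47.2 and 86.7) stayed under the median.

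Epha7 had 973.9 in OSNs, 389.3 in the residual epithelium and 689.9 in brain, 2.50-fold higher in OSNs than in the residual epithelium. Its counted chip A probe set had 273.1, 27.0 and 347.5, at least 3.89-fold higher. As with Epha5, OSNs and brain lay within 2-fold of each other on both chips (log2 ratios of 0.50 and -0.35). Both genes were thus called against the residual epithelium, while their ratios to brain stayed within 2-fold.

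The other EphA receptors that reached the chip median did so in brain alone. Epha4, which binds ephrins of both classes, had 58.5 in OSNs, 194.5 in the residual epithelium and 1549.6 in brain, at least 19.4-fold lower in OSNs than in brain. All 4 of its counted probe sets, on both chips, were lower in OSNs than in brain, with log2 ratios from -4.28 to -2.55. Epha10, which lacks kinase activity, had 43.3, 44.4 and 553.5. Epha3 had 89.8, 114.6 and 416.1, Epha6 had 97.9, 90.4 and 275.4, and Epha8 had 22.6, 29.6 and 229.0. In each of these 5 genes this fixes the sign of the ratio but not its size. With the floor at percentile 40 of the chip, Epha6 and Epha8 were no longer called. Epha1 and Epha2 stayed under the chip median in every population.

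Only 2 EphB receptors could be counted against brain, and both were lower in OSNs, where 21.1% of all counted genes were lower. For Ephb6 brain alone reached the chip median, which fixes the sign, so only Ephb1 could have gone either way. Ephb1 had 487.0 in OSNs, 867.2 in the residual epithelium and 2123.5 in brain, and all 3 signals were above the chip median. OSNs were 4.36-fold lower than brain and 1.78-fold lower than residual epithelium. Ephb6, which also lacks kinase activity, had 2.6, 94.8 and 379.0, at least 5.39-fold lower in OSNs than in brain. Ephb4, a receptor of veins, reached 133.5 at most and was not counted.

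**Figure D2:**
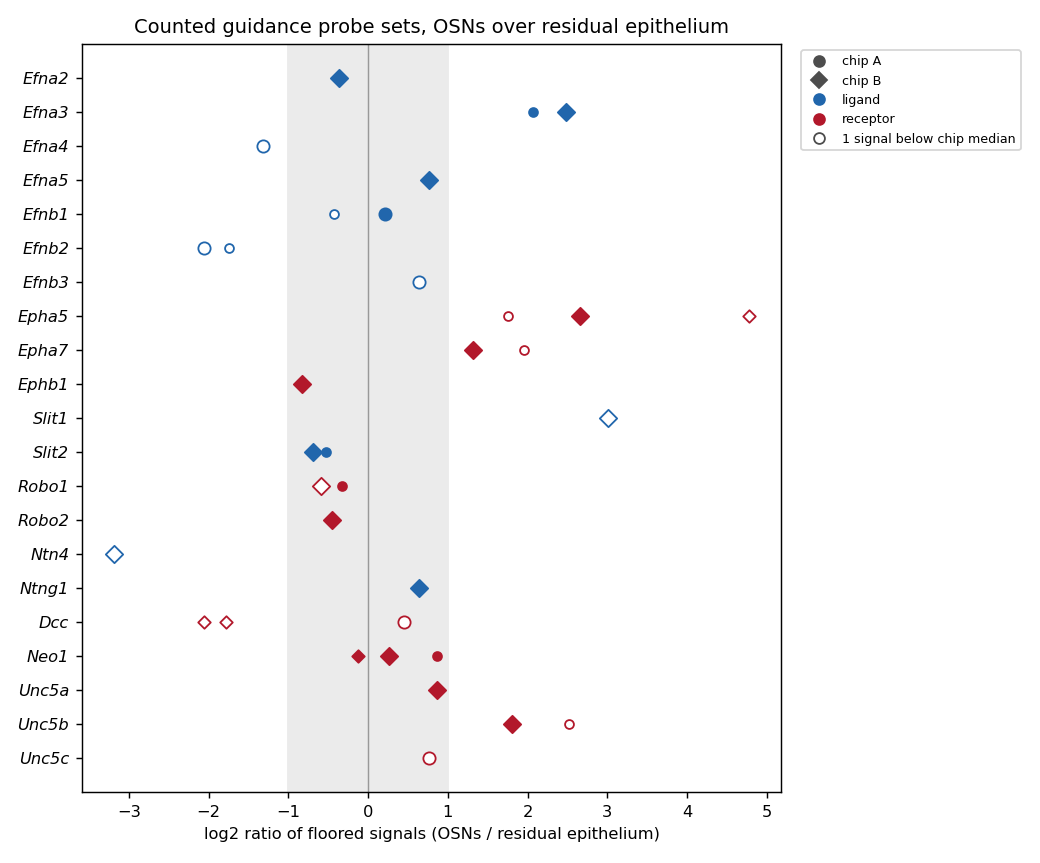
Log2 ratio of OSNs over residual epithelium for each guidance probe set counted, by gene, with circles for chip A and diamonds for chip B, blue for ligands and red for receptors, and the representative probe set drawn larger. Open symbols had 1 of the 2 signals below the chip median, and the grey band marks ratios within 2-fold. All counted probe sets of Efna3, Epha5, Epha7, Slit1 and Unc5b lie right of the band and those of Efna4, Efnb2 and Ntn4 left of it. Those of Dcc lie on both sides of 0, as do, within the band, those of Efnb1 and Neo1.

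Of the counted Slit probe sets, only 1 had OSNs highest. Slit1 on chip B had 1911.1 in OSNs, 236.8 in the residual epithelium and 547.9 in brain. OSNs exceeded the residual epithelium 8.07-fold and brain 3.49-fold, and 8.07-fold was the largest ratio of OSNs over residual epithelium among the representative probe sets. Its chip A probe set had 43.6, 30.3 and 149.9, under the chip median throughout and with brain highest, so the result rests on 1 probe set. Slit2 had 298.3, 481.4 and 419.3 on chip B and 230.1, 332.3 and 488.2 on chip A, with OSNs lowest on both. The log2 ratio of OSNs over brain was -1.09 on chip A and -0.49, within 2-fold, on chip B.

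The Robo receptors had signals near or under the chip median, apart from Robo1 in brain. Robo2, the receptor known from OSN axon sorting, had 252.5 in OSNs, 345.4 in the residual epithelium and 96.0 in brain. OSNs exceeded brain 2.63-fold and the residual epithelium exceeded it 3.60-fold, while brain was below the chip median, which fixes both signs. The Robo2 call of OSNs over brain ended with the floor at percentile 40 (log2 ratio 0.59), with a pseudocount in place of the floor (0.92), and with the filter at percentile 75, where it was not counted. OSNs and residual epithelium stayed within 2-fold. Robo1 gave no settled order: 1 chip B probe set had 222.7, 335.7 and 506.8, the chip A probe set 278.2, 350.8 and 188.8, and another chip B probe set 15.6, 155.2 and 122.0. All 3 had OSNs below the residual epithelium. Robo3, which acts in commissural axons at the midline, had 18.0, 128.7 and 271.1, at least 3.40-fold lower in OSNs than in brain. A second Robo3 probe set, on chip A, had 80.1, 85.5 and 54.6, under the chip median throughout and with OSNs above brain. Robo4, a receptor of endothelial cells, had 89.0, 114.5 and 189.4.

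All 5 counted netrins and netrin-Gs were lower in OSNs than in brain, where 21.1% of all counted genes were lower. In 4 of the 5 brain reached the chip median and OSNs did not, which fixes the sign. Only Ntng1, at or above the median in both, could have gone either way. Ntn4, a netrin of basement membranes, had 7.5 in OSNs, 726.2 in the residual epithelium and 663.5 in brain, at least 9.11-fold and at least 8.33-fold lower in OSNs. Its chip A probe set (9.4, 15.8 and 80.5) never reached the chip median. Ntn5 had 63.1, 93.7 and 873.2, at least 10.96-fold lower in OSNs than in brain, and Ntn1, the classical attractant, had 105.0, 184.7 and 328.7. OSNs were lowest by the representative probe set of each of these 3 secreted netrins, with brain the only population at the median for Ntn1 and Ntn5. A second Ntn1 probe set (96.9, 79.1 and 170.2) stayed under the chip median, with the residual epithelium lowest.

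The netrin-Gs are lipid-anchored relatives that bind Lrrc4 proteins and not Dcc. Ntng1 had 478.2 in OSNs, 306.2 in the residual epithelium and 1186.7 in brain, 2.48-fold lower in OSNs than in brain. Its 3 other probe sets gave larger differences from brain, with log2 ratios down to -3.26. Ntng2 had 56.0, 90.1 and 243.7, exactly at the chip median in brain, and was at least 3.06-fold lower in OSNs.

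Netrin receptors went different ways, and Unc5b was the one that was higher in OSNs. It had 1678.2 in OSNs, 483.0 in the residual epithelium and 724.8 in brain on chip B, and 1160.9, 202.2 and 578.4 on chip A. Both chips put the populations in the same order. OSNs were 3.48-fold (chip B) and 5.74-fold (chip A) higher than residual epithelium, and the log2 ratio over brain was 1.21 and 1.01.

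The other Unc5 receptors were lower in OSNs than in brain. Unc5a had 569.8 in OSNs, 312.2 in the residual epithelium and 2669.4 in brain, a 4.69-fold lower signal in OSNs than in brain with all 3 signals above the chip median. Unc5c had 309.2, 182.8 and 938.8, and its second probe set 56.7, 57.7 and 343.2. Unc5d had 150.0, 212.4 and 1247.5, 8.32-fold lower in OSNs than in brain, but brain alone reached the chip median, which fixes the sign. Unc5a and Unc5c were nominally above the residual epithelium (log2 ratios of 0.87 and 0.76), within 2-fold.

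Neo1, a relative of Dcc that also binds repulsive guidance molecules, had 2799.2 in OSNs, 2329.5 in the residual epithelium and 2426.0 in brain by its representative probe set, all within 2-fold. The log2 ratios of its 3 counted probe sets ranged from -0.13 to 0.87 for OSNs over residual epithelium and from -0.53 to 0.34 for OSNs over brain. Its chip A probe set (597.2, 327.8 and 861.8) was 2.63-fold lower in the residual epithelium than in brain. Dcc gave opposite readings. The chip A probe set had 287.9, 210.2 and 214.2, whereas 2 probe sets on chip B had 69.1, 331.6 and 512.6, and 15.3, 273.2 and 602.0. By the chip B probe sets Dcc was lowest in OSNs, with log2 ratios of -2.06 and -1.78 against the residual epithelium and -2.69 and -2.92 against brain, and by the chip A probe set it was highest there, at 0.45 and 0.43.

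Against brain, a mixture of other neurons and glia, the balance of the set was toward brain. Of 31 counted members, 19 (61.3%) were at least 2-fold lower in OSNs, against 21.1% of all counted genes, and 5 (16.1%) were higher, against 18.5% of all. The 5 were Efna3, Efna5, Slit1, Robo2 and Unc5b, of which Robo2 was not called under 3 of the alternative settings given with it. In 14 of the 31 brain alone reached the chip median, so their sign was fixed by the filter. Among the 15 members at or above the median in both populations, 5 (33.3%) were lower, against 11.9% of such genes, and 4 (26.7%) were higher, against 16.4%. Those lower were Efnb3, Ephb1, Ntng1, Unc5a and Unc5c. Receptors were lower for 12 of 18 and higher for 2, and ligands lower for 7 of 13 and higher for 3. The median log2 ratio was -1.60 for counted members and 0.05 for all counted genes, and -0.09 and 0.13 for those at or above the median in both.

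**Figure D3:**
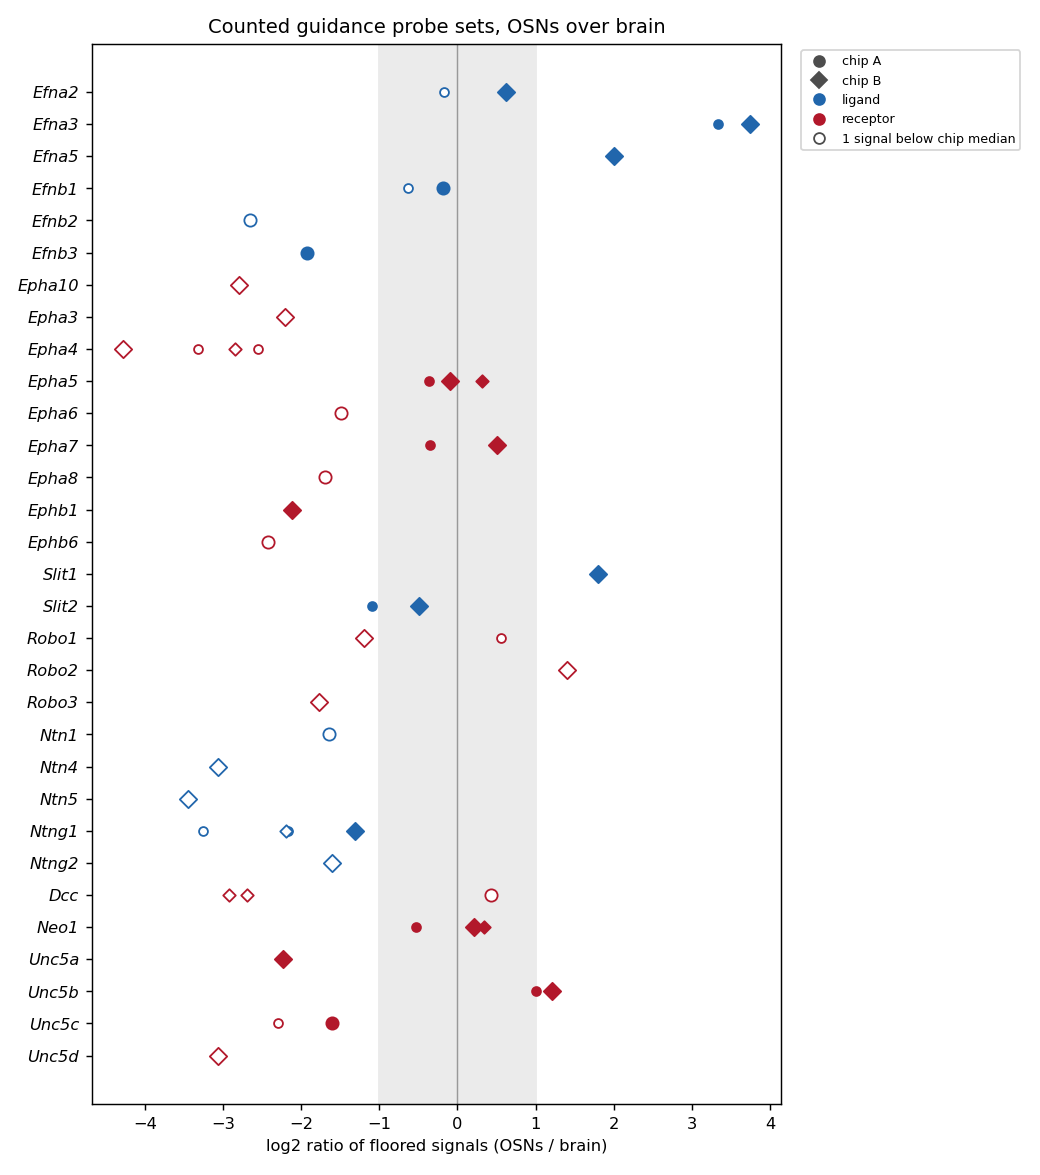
Log2 ratio of OSNs over brain for each guidance probe set counted, with the symbols and band of the plot for residual epithelium. Efna3, Efna5, Slit1, Robo2 and Unc5b have representative probe sets right of the band, and 19 genes have theirs left of it, most with open symbols because only brain reached the chip median. Robo1 and Dcc have probe sets on both sides of 0, as do, within the band, Efna2, Epha5, Epha7 and Neo1.

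The residual epithelium, too, had most counted members lower than brain. Of 31 counted members, 17 (54.8%) were at least 2-fold lower in the residual epithelium than in brain, against 18.9% of all counted genes, and 4 (12.9%) were higher, against 22.5%. The 4 were Efna3, Efna4, Efna5 and Robo2. Epha5, with a log2 ratio of -2.76, and Slit1, with -1.21, were among those lower, whereas in OSNs neither was lower than brain by 2-fold. The Slit1 call ended with a pseudocount in place of the floor. In 14 members brain alone reached the chip median. Among the 15 with both signals at or above it, 4 were lower (Epha5, Ephb1, Ntng1 and Unc5a) and 2 were higher (Efna3 and Efna5), with 13.6% and 16.3% of such genes in all called lower and higher. With the arrays scaled on the probe sets shared by both chips, the counts became 18 lower and 2 higher of 32 counted, and Efna3 and Efna5 were no longer called. All counted genes moved the same way, from 2446 lower and 2902 higher to 2967 lower and 2398 higher. These comparisons share arrays with the others: the brain arrays stand under both brain ratios, and no agreement between them is read as support.

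**Figure D4:**
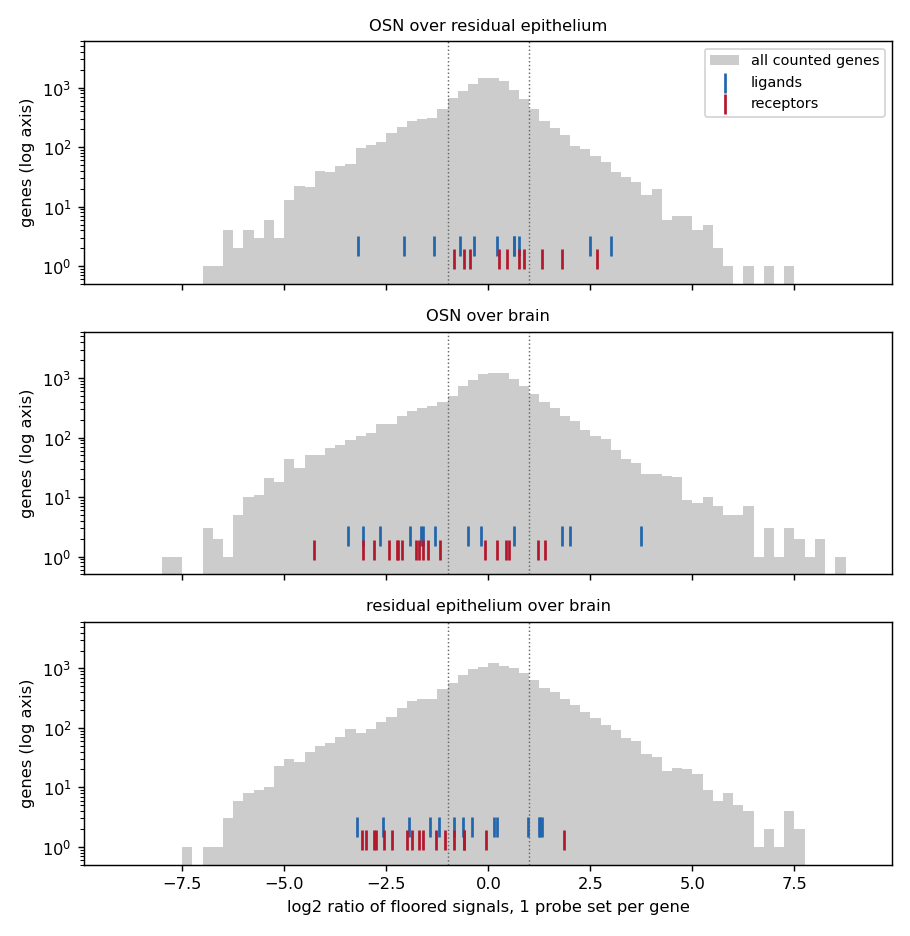
Number of counted genes by log2 ratio in the 3 comparisons (grey, log axis), with 1 probe set per gene, and the counted guidance ligands (blue ticks) and receptors (red ticks). Dotted lines mark 2-fold in each direction. In both comparisons with brain most ticks lie left of the left line (19 of 31 and 17 of 31), whereas for OSNs over residual epithelium 13 of 21 lie between the lines.

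Each chip was also read on its own, over all probe sets of the members, of which several can belong to 1 gene. On chip A, 4 of 15 counted probe sets (26.7%) were higher in OSNs than in the residual epithelium and 3 (20.0%) lower, against 12.5% and 18.8% of all probe sets counted on that chip. On chip B, 6 of 19 (31.6%) were higher and 3 (15.8%) lower, against 13.0% and 16.5%. The shares of higher probe sets on both chips thus lay above those of all probe sets. Against brain, 2 of 23 (8.7%) were higher in OSNs and 13 (56.5%) lower on chip A, with 16.1% and 22.0% of all. On chip B, 5 of 28 (17.9%) were higher and 16 (57.1%) lower, with 17.6% and 21.7% of all. For the residual epithelium over brain, chip A had 2 of 24 (8.33%) higher and 14 (58.3%) lower, beside 21.2% and 20.7%, and chip B had 3 of 28 (10.7%) higher and 16 (57.1%) lower, beside 20.1% and 20.0%. On each chip most counted member probe sets were lower than in brain. Receptor probe sets on chip A were higher in OSNs than in the residual epithelium for 3 of 7 and lower for 0, and ligand probe sets higher for 1 of 8 and lower for 3. On chip B the receptors had 4 higher and 2 lower of 12, the 2 being those of Dcc, and the ligands 2 higher and 1 lower of 7.

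Proteins that carry the signals of these receptors inside the cell, or that bind beside them, were followed in 3 lists. Ephrin signalling genes were higher in OSNs than in the residual epithelium for 5 of 24 counted and lower for 4 (median log2 ratio -0.02, beside -0.05 for all genes), where 12.8% of all counted genes were higher and 18.7% lower. Of the 20 at or above the chip median in both populations, 4 were higher and 2 lower, beside 11.6% and 9.97% of such genes in all. Anks1b, an adaptor with a phosphotyrosine-binding domain, had 1086.2 in OSNs, 136.4 in the residual epithelium and 1631.0 in brain, and Rgs3, which binds ephrin-B tails, had 2272.9, 830.9 and 810.0. The 3 counted Rgs3 probe sets ranged from 0.01 to 2.77 in log2 ratio over the residual epithelium. At the other end, Dok1 had 89.9, 280.8 and 100.6 and Ptpro, a phosphatase that acts on Eph receptors, 87.2, 325.1 and 624.2. Against brain 4 of 26 were higher and 10 lower, beside 18.5% and 21.1% of all genes. Of the 21 at or above the median in both, 4 were higher and 6 lower, beside 16.4% and 11.9% of such genes in all. Vav2, an exchange factor recruited by Eph receptors, had 2479.6 in OSNs and 421.6 in brain, and Kalrn had 4365.8 and 1019.5, although the 6 counted Kalrn probe sets ranged from -4.06 to 2.10. Ngef, the exchange factor ephexin that works with EphA receptors, had 23.4 and 1233.2, and Chn2, a Rac-inactivating chimaerin, 38.8 and 2191.1, at least 17.5-fold and at least 31.2-fold lower in OSNs.

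Of the Slit-Robo signalling genes, 3 of 23 were higher in OSNs than in the residual epithelium and 3 lower (median 0.05), beside 12.8% and 18.7% of all genes, so the share of higher genes was near that of all. Of the 19 at or above the median in both populations, 3 were higher and 0 lower, beside 11.6% and 9.97% of such genes in all. The FLRT adhesion proteins, which bind Robo or Unc5 receptors, were at both ends. Flrt1 had 28218.4 in OSNs, 8044.1 in the residual epithelium and 2168.1 in brain, and was the highest of the list in both OSN comparisons. Flrt3 had 90.4, 454.6 and 746.2, and Flrt2 had 94.8, 556.9 and 2143.5. Sdc3, a heparan sulfate proteoglycan, had 3262.2, 935.4 and 1765.6. Against brain 4 of 23 were higher and 4 lower, beside 18.5% and 21.1% of all genes. Of the 19 at or above the median in both, 4 were higher and 0 lower, beside 16.4% and 11.9% of such genes in all. The filter thus fixed the sign of the 4 lower calls. At the ends were Srgap1, a GTPase-activating protein that binds Robo, at 6202.9 in OSNs and 1130.4 in brain, and the Robo3 ligand Nell2 at 109.2 and 1298.6.

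Of the netrin signalling genes, 3 of 20 were higher in OSNs than in the residual epithelium and 5 lower (median -0.61), beside 12.8% and 18.7% of all genes. Of the 17 at or above the median in both populations, 3 were higher and 2 lower, beside 11.6% and 9.97% of such genes in all. Against brain 2 of 22 were higher and 11 lower (median -1.02, beside 0.05 for all genes), where 18.5% and 21.1% of all genes were called. Of the 17 at or above the median in both, 2 were higher and 6 lower, beside 16.4% and 11.9% of such genes in all. Pitpna, a phosphatidylinositol transfer protein, had 3004.2 in OSNs, 964.1 in the residual epithelium and 3440.2 in brain, and Dapk1, a kinase known from Unc5b signalling, 1040.2, 381.8 and 1163.3. The 2 counted Pitpna probe sets had log2 ratios of 0.75 and 1.64 over the residual epithelium. Lowest against the residual epithelium were Dock1, a Rac exchange factor (78.4, 324.3 and 313.1), and the actin-binding Ablim1 (171.0, 824.8 and 1745.7). Against brain, Siah1a (777.4 in OSNs and 304.7 in brain) and Cblb (2665.1 and 1264.1), both ubiquitin ligases, were highest. The log2 ratios of their counted probe sets, 3 each, ranged from 0.11 to 1.35 for Siah1a and from 0.2 to 1.08 for Cblb. Mapt, the microtubule protein tau, had 428.9 and 8631.7. Lrrc4c, the partner of netrin-G1, had 216.8 and 5166.2, 23.8-fold lower in OSNs, beside the lower Ntng1 signal.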

How the data were processed

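RNA of 3 mouse populations was hybridised to 2 Affymetrix chips, 6 arrays in all. What the authors deposited is a signal per probe set, a linear intensity. Per the submitters' processing notes MAS5 made them on 5 arrays; for the brain array of chip A no tool is named. The version and settings of MAS5 are not stated there, and its present or absent flags were not used here. Scaling each array to 1 level makes signals relative to the array's total, so amounts per cell cannot be compared.

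Symbols came from the platform annotation, updated through Entrez identifiers to RefSeq's GRCm38.p6 table. The files name no genome build. Of 45137 probe sets, 35041 had 1 symbol, 936 several and 9160 none, and 64 control probe sets per chip were left out of gene comparisons. Member ratios were taken within a chip, while several of the marker sums add signals of both chips. Every member was accounted for, and the 2 highest and 2 lowest counted genes of each signalling list were named in each OSN comparison. The members, lists and markers were chosen with earlier results of these data known. Arrays were grouped by their titles. With 1 array per population and chip no test was possible, and the number of arrays limits the precision. The alternatives changed the floor, the filter, the scaling, the choice of probe set and the chip. The computation was tested on simulated data with changes larger than the 2-fold threshold, planted in OSNs only and read against the residual epithelium. That test does not show how calls near 2-fold or ratios to brain behave. Ratios were computed with pandas 2.3.3 and numpy 2.4.6 under Python 3.11.15, and plots drawn with matplotlib 3.10.9.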

Additional observations from a re-analysis of the deposited data

How the results depend on the processing

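Each count of called members was recomputed under 12 alternatives, and 63 of the 72 recomputed counts stayed within 1.5 times the value given. The 5 members higher in OSNs than in the residual epithelium were the same 5 genes under all alternatives except chip A alone, which has no counted Slit1 probe set, and scaling on shared probe sets, which added Unc5a. A filter at percentile 75, under which fewer genes are counted, left 1 of 10 counted members lower in OSNs than in the residual epithelium. Against brain it left 9 of 16 lower in OSNs, and 2 higher and 9 lower of 16 in the residual epithelium. Among all genes, 1385 of 7844 were then lower in OSNs than in the residual epithelium and 1747 of 8057 lower than in brain. For residual epithelium over brain, 2046 of 8452 were higher and 1791 lower. With chip A alone, OSNs over brain had 2 higher and 10 lower of 19 counted members, beside 1311 higher and 1682 lower of 7861 genes. Residual epithelium over brain had 2 higher and 11 lower of 19, beside 1759 higher and 1628 lower of 8311 genes. On that chip the Robo1 log2 ratio of OSNs over brain reversed to 0.56. Scaling on shared probe sets left 2 of 32 counted members higher in the residual epithelium than in brain, beside 2398 of 13044 genes. That scaling moved the median of all counted genes by -0.20 for OSNs over brain and -0.22 for residual epithelium over brain. Of 567 recomputed ratios of called members, 554 stayed within the SD between probe sets of a gene, 12 moved by more and 1 reversed. Many of the 554 could not move. A changed filter leaves a ratio as it is, a changed floor leaves signals above it, and a single chip can return the same probe set. Ratios no longer counted under an alternative were left out. These numbers therefore do not measure how stable the calls are. Median over probe sets, or chip B alone, added Dcc to the members lower in OSNs. No paired analysis was possible because each population had 1 array per chip. Signal over background limits members with a signal near the chip median. With the floor at percentile 40, Efnb2 was no longer called against the residual epithelium, nor were Robo2, Epha6, Epha8, Ntng2 and Robo3 in OSNs over brain; a pseudocount in place of the floor ended the calls of Robo2 and Robo1 there.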

Other observations

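Several members are chromosomal neighbours by the RefSeq gene order. Efna1, Efna3 and Efna4 follow each other on chromosome 3 with 0 protein-coding genes between them, and each had its own pattern. Efna3 was highest in OSNs (10455, against 1877.5 in the residual epithelium and 784.5 in brain), Efna4 was highest in the residual epithelium (168.9 in OSNs, 421.8 in the residual epithelium and 168.7 in brain), and Efna1 lay near or below the floor throughout (75.6 in OSNs, 20.4 in the residual epithelium and 14.7 in brain). Robo1 and Robo2 are adjacent on chromosome 16 and Robo4 and Robo3 on chromosome 9. Robo2 had its lowest signal in brain (252.5 in OSNs, 345.4 in the residual epithelium and 96.0 in brain), whereas the representative Robo1 probe set had its highest there (222.7, 335.7 and 506.8).

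Different probe sets of 1 gene did not always share a sign. In OSNs over residual epithelium, 9 of 13 other counted probe sets of members had the sign of the representative one, in OSNs over brain 13 of 20 and in the residual epithelium over brain 14 of 19. Dcc disagreed in both OSN comparisons by ratios past 2-fold on chip B. Robo1 disagreed in both comparisons with brain. Its log2 ratios were -1.19 and 0.56 for OSNs over brain. For the residual epithelium over brain they were -0.59 and 0.89, both within 2-fold. Where Neo1, Efna2, Efnb1, Epha5 or Epha7 disagreed in an OSN comparison, both ratios were within 2-fold.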
